A study of Mus musculus with 82 samples.

Results

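The proteasome subunit genes were taken as all genes on the array whose symbol is Psma, Psmb, Psmc, Psmd, Psme or Psmg followed by a number. They numbered 45 of the 12394 genes measured, and where a gene had several probe sets the one with the highest average across the 82 arrays stood for it. The set held 8 Psma, 10 Psmb, 6 Psmc, 14 Psmd, 3 Psme and 4 Psmg genes. The 10 Psmb genes included Psmb8, Psmb9 and Psmb10, which code for the immunoproteasome subunits. Of the 45 genes, 44 passed the filter on low values and were tested. Psma8, an alpha subunit known from germ cells, did not pass. Psma8 averaged 4.30 ± 0.88 in captured cells and 4.04 ± 0.22 in whole granuloma of study 2 (log2 values, SD, n = 15 each). Psme2 shared its probe set with Psme2b and has no value here.

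All mice were BALB/c.iMycEμ animals aged at least 8 weeks, which carry a Myc transgene in the immunoglobulin heavy chain locus, and all had received pristane into the peritoneum. Pristane is an oil that causes granulomata in which plasma cell tumors arise. Captured cells were cells stained by methyl green pyronin and cut from frozen granuloma sections by laser, labelled as nascent plasma cell tumor cells, and whole granuloma was undissected tissue of the same kind. RNA of both went through repeated linear amplification before hybridization to mouse oligonucleotide arrays. In study 2, captured cells of days 7, 17, 33, 49 and 105 came from 3 specimens a day with 2 arrays each, and whole granuloma from 3 specimens a day with 1 array each. In study 1, captured cells came from 4, 4, 3, 3 and 1 specimens at days 7, 17, 33, 46 and 104, and whole granuloma from 2, 2, 3 and 1 specimens at days 7, 17, 33 and 104. The groups analysed here hold no untreated mice and no mice without the transgene. The labels do not say whether the specimen codes are separate animals, so p-values measure the spread between specimens.

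The proteasome degrades proteins tagged with ubiquitin. Its core is a barrel of alpha rings (Psma) around beta rings (Psmb), of which Psmb5, Psmb6 and Psmb7 cut proteins. A regulatory cap of ATPases (Psmc), which unfold the substrate, and non-ATPase subunits (most Psmd genes), which bind and process it, sits on the barrel. Genes are grouped below by symbol alone, so every Psmd gene is counted with the cap. Interferon gamma induces Psmb8, Psmb9 and Psmb10, which take the places of Psmb5, Psmb6 and Psmb7 in newly built cores and alter the peptides offered to class I molecules. Psme genes code for activators that open the core and Psmg genes for chaperones that assemble it. Plasma cells make antibody at a rate that puts load on the proteasome, and plasma cell tumors are treated with proteasome inhibitors.

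The stretches before the gene starts of 3 catalytic subunits are shown because the values below compare the induced subunits with the constitutive ones. Capitals mark a match to the gamma-activated site core TTCNNNGAA in Psmb8 and to the antioxidant response element core TGACNNNGC in Psmb5. The Psmb9 stretch holds neither. The sequences are from RefSeq on GRCm38.p6, each 100 bases that end before the gene start, at chr17:34198095-34198194 (plus strand, Psmb8), chr14:54617996-54618095 (minus strand, Psmb5) and chr17:34187331-34187430 (minus strand, Psmb9).
Psmb8: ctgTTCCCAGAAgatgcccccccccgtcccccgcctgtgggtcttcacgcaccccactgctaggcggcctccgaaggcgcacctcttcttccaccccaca
Psmb5: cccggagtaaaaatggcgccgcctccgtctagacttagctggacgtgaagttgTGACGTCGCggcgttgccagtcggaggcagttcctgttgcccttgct
Psmb9: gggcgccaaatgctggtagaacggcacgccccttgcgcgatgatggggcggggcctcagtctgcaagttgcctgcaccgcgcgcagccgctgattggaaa

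RefSeq promoters were matched for 37 of the 45 genes and searched on both strands over 250 bases before the gene start. The core TGACNNNGC was in 5 of 37 (13.5%), Psmb5, Psmb6, Psmc6, Psmd9 and Psmd12, against 11.5% of all 27025 genes with a promoter entry. The core TTCNNNGAA was in 2 of 37 (5.41%), Psmb8 and Psmg1, against 8.13% of all. The interferon-stimulated response element core, GAAA and GAAA with 2 bases between, was in 3 of 37 (8.11%), Psmb3, Psmd4 and Psmd9, against 3.46% of all. CCAAT was in 13 of 37 (35.1%) against 37.5% of all. A match is a description of letters in this window and says nothing about binding.

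The 3 immunoproteasome subunit genes were lower in captured cells than in whole granuloma in study 2. On the quantile-normalized values they passed the threshold of an adjusted p of 0.05 in limma. They also passed as lower on the deposited values, but 96.3% of all genes did so there, with the median gene at −1.68. The deposited scale is therefore not a separate check of their direction. With each array centred on its median only Psmb10 passed (−1.12), and Psmb8 (−0.27, adjusted p = 0.128) and Psmb9 (−0.13, adjusted p = 0.53) did not. In study 1 Psmb8 was higher on quantile-normalized values, and Psmb9 and Psmb10 did not pass. Tissue comparisons used log2 values quantile-normalized across all arrays, because the array medians of the deposited values lay far apart between tissues. These are bulk measurements, in which fewer cells of a type and less RNA per cell cannot be told apart. Levels of different probe sets cannot be set against each other, so only the change of a difference between genes is read.

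Psmb10, the induced counterpart of Psmb7, ran from 5.68 to 8.42 in captured cells of study 2 with a median of 7.84 (n = 15), against 8.09 to 10.48 in whole granuloma with a median of 9.32 (n = 15). It was lower in captured cells in 15 of 15 specimens that had both tissues. The log2 difference was −1.46 (SE 0.16, adjusted p = 1.11e-10). In study 1 Psmb10 ran from 8.12 to 8.76 in captured cells (median 8.36, n = 15), against 7.97 to 9.05 in whole granuloma (median 8.49, n = 8). The difference did not pass (−0.17, adjusted p = 0.505). It passed as lower on the deposited values (−0.85, adjusted p = 0.000293), where 60.2% of all genes did and the median gene was at −0.60.

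Psmb8, the induced counterpart of Psmb5, ran from 8.08 to 9.69 in captured cells of study 2 (median 9.00), against 8.61 to 10.99 in whole granuloma (median 9.42). The ranges overlapped, and Psmb8 was lower in captured cells in 13 of 15 specimens (−0.62, SE 0.15, adjusted p = 0.000317), a call lost with centred arrays (−0.27). In study 1 Psmb8 ran from 9.05 to 9.93 in captured cells (median 9.60), against 8.67 to 9.69 in whole granuloma (median 8.88). It was higher in captured cells in 5 of 5 specimens on this scale (0.55, SE 0.21, adjusted p = 0.0235), but the difference was −0.02 on the deposited scale. Without code 12 of day 17 it was 0.47 (adjusted p = 0.0797) and without code 5 of day 33 it was 0.50 (adjusted p = 0.0511).

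Psmb9, the induced counterpart of Psmb6, ran from 7.56 to 9.30 in captured cells of study 2 (median 8.89), against 8.25 to 11.12 in whole granuloma (median 9.16). It was lower in captured cells in 11 of 15 specimens (−0.52, SE 0.18, adjusted p = 0.0088), a call lost with centred arrays (−0.13). In study 1 Psmb9 ran from 7.70 to 9.42 in captured cells (median 8.79), against 7.83 to 9.30 in whole granuloma (median 8.07). The difference there was 0.48 and did not pass (adjusted p = 0.094). It passed when any 1 of 3 specimens was left out, with values from 0.56 to 0.66.

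Each induced subunit was also set against the constitutive one it replaces, since a shift of the whole array cancels in that ratio. The log2 ratio of Psmb9 to Psmb6 was lower in captured cells than in whole granuloma of study 2, with a difference of −1.0 (SE 0.16, adjusted p = 9.7e-07). Specimen differences ran from −2.30 to 0.57 with a median of −0.97, and 14 of 15 were below 0. The ratio of Psmb8 to Psmb5 differed by −0.46 (SE 0.12, adjusted p = 0.00138), with specimen differences from −2.10 to 0.24 and 11 of 15 below 0. The ratio of Psmb10 to Psmb7 did not pass on this scale (−0.51, 95% interval −1.05 to 0.02, adjusted p = 0.0783) but did as deposited (−0.66, adjusted p = 0.00473) and with centred arrays (−0.66, adjusted p = 0.00719), and Psmb7 itself was lower in captured cells too. Centring takes the same value from every gene of an array, so a ratio cannot differ between these 2 scales and they are 1 check. Leaving out specimen 3 of day 49 gave −0.73 (adjusted p = 0.0121). Without 1 array of captured cells of specimen 2 of day 49, described below, the Psmb10 to Psmb7 value was −0.27 (adjusted p = 0.267), and those of Psmb9 to Psmb6 and Psmb8 to Psmb5 were −1.05 and −0.49.

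In study 1 the ratios of Psmb10 to Psmb7 and of Psmb8 to Psmb5 were higher in captured cells on this scale. The Psmb10 to Psmb7 differences of the 5 specimens with both tissues were 0.60 (day 7), 1.99 (day 17), 3.64 and 2.14 (day 33) and 0.32 (day 104). All 5 were above 0, and the fitted difference was 1.31 (SE 0.37, adjusted p = 0.00269). Psmb10 itself was not higher in captured cells there (−0.17, not past), while Psmb7 was lower (−1.48). The Psmb8 to Psmb5 differences were 0.42, 0.46, 0.73, 0.98 and 0.38 in the same order, with a fitted value of 0.56 (SE 0.18, adjusted p = 0.00668). That value did not pass on the deposited scale (0.35, adjusted p = 0.0687) or with centred arrays (0.35, adjusted p = 0.0735), and was 0.53 with the specimen as a fixed block (adjusted p = 0.0629). Psmb9 to Psmb6 did not pass (0.18, adjusted p = 0.509) and was at −0.12 on both other scales, which give the same ratio by construction. Tested directly, study 2 minus study 1, the tissue difference of all 3 ratios differed between studies: −1.07 for Psmb8 to Psmb5 (adjusted p = 0.000172), −1.31 for Psmb9 to Psmb6 (adjusted p = 0.000378) and −1.43 for Psmb10 to Psmb7 (adjusted p = 0.0126).

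**Figure D1:**
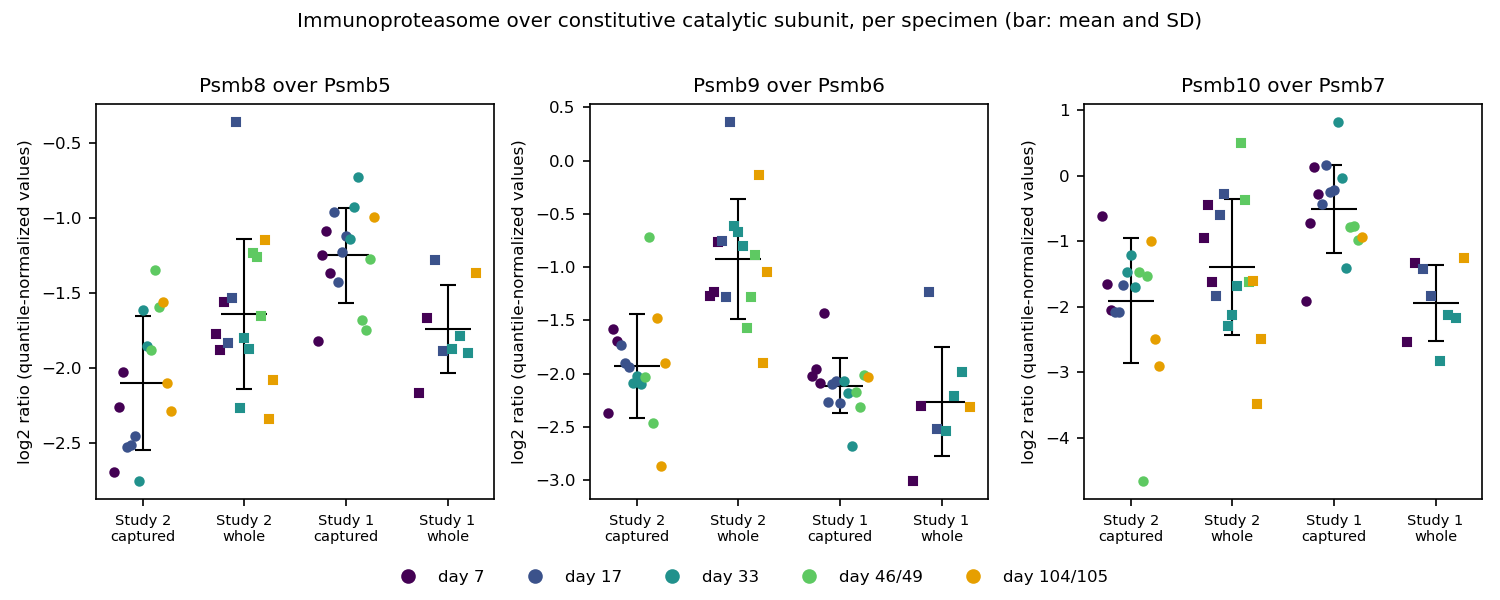
Log2 ratio of each immunoproteasome subunit to the constitutive subunit it replaces, per specimen, with captured cells left of whole granuloma in each study (circles captured cells, squares whole granuloma, colours days, bars mean and SD). In study 2 the Psmb9 to Psmb6 ratio averaged −1.92 ± 0.49 in captured cells and −0.92 ± 0.56 in whole granuloma, and in study 1 it averaged −2.11 ± 0.26 in captured cells and −2.26 ± 0.51 in whole granuloma.

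The signal of 3′ over 5′ control probes, which measures how far amplified RNA is shortened, moved with the tissue and the study. It was 4.14 ± 0.90 in captured cells and 1.61 ± 0.13 in whole granuloma of study 2, and 4.49 ± 0.68 in captured cells and 3.19 ± 0.36 in whole granuloma of study 1 (log2, SD over arrays). With this measure as a covariate, the study 2 differences were −0.40 for Psmb8 to Psmb5 (adjusted p = 0.382), −0.40 for Psmb9 to Psmb6 (adjusted p = 0.503) and −3.115 for Psmb10 to Psmb7 (adjusted p = 0.000166). In study 1 the Psmb10 to Psmb7 value with it was −0.06. In study 2 whole granuloma ran from 1.39 to 1.84, and no captured array lay within that range. All captured arrays but 1 were at 3.10 or above, so the covariate fit had no shared range on which to compare the tissues of study 2. The captured array at 0.46, of specimen 2 of day 49, had Psmb10 at 3.45 and Psmb7 at 11.83. No covariate fit was run without that array, so its weight in these values is not known. Over all members, 2 were higher with the covariate in study 2, and study 1 had 3 higher and 8 lower. Other members passed as lower in study 2 with it, Psmb6 among them, and their number is not given here. The shares of all genes with the covariate are not given here, so these counts are not read as a trait of the members. Psmb8 did not pass in either study with the covariate (−0.83, adjusted p = 0.114, in study 2 and 0.44, adjusted p = 0.218, in study 1), and Psmb10 passed in study 1 (−0.78, adjusted p = 0.0215).

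Across all members, 32 of 44 passed in study 2, against 69.8% of all 8593 genes tested, and 17 of 44 in study 1, against 60.5%. Study 2 held 15 genes higher in captured cells (34.1%), against 34.4% of all genes, and 17 lower (38.6%), against 35.4% of all. The members' median difference was −0.16 and that of all genes −0.02. In study 1, 14 of 44 were higher (31.8%, against 31.5% of all genes) and 3 lower (6.82%, against 29% of all), with medians of 0.06 for members and for all genes. These splits depend on the scale. On the deposited values no member was higher and 43 were lower in study 2, where 96.3% of all genes were lower and the median gene differed by −1.68. In study 1, 3 were higher and 21 lower on that scale, against 7.67% and 60.2% of all genes, with the median gene at −0.60. With arrays centred on their medians 25 were higher and 9 lower in study 2, against 45.7% and 27.1% of all genes. In study 1, 20 were higher and 4 lower with centred arrays, against 36.2% and 26.8% of all genes. The median gene was then at 0.19 in study 2 and 0.14 in study 1. Directions below are on the quantile-normalized scale.

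**Figure D2:**
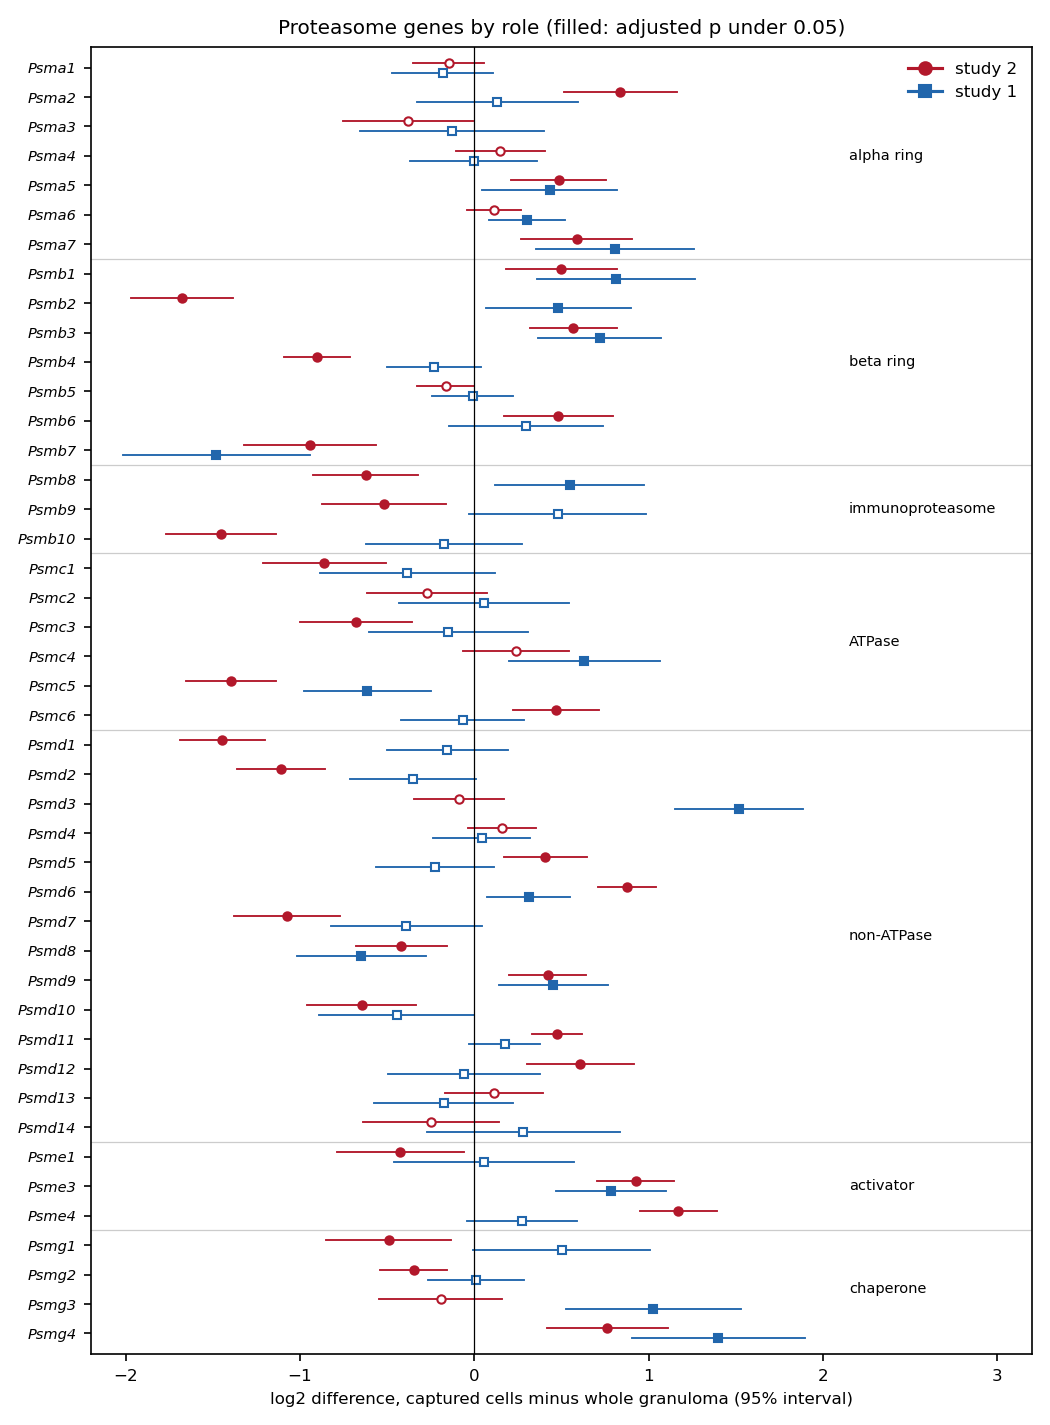
Log2 difference of captured cells minus whole granuloma for the 44 tested proteasome genes, ordered by role (circles study 2, squares study 1, lines 95% intervals, filled where the adjusted p was under 0.05). Study 2 values run from −1.68 (Psmb2) to 1.17 (Psme4, at −0.35 on the deposited scale) and study 1 values from −1.48 (Psmb7) to 1.52 (Psmd3).

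The alpha ring had 3 of its 7 tested genes higher in captured cells in each study on this scale, with none lower. Psma2 ran from 8.79 to 11.96 in captured cells of study 2 (median 11.59), against 9.93 to 11.32 in whole granuloma (median 10.71). It was higher in 14 of 15 specimens (0.84, SE 0.16, adjusted p = 1.55e-05, −0.33 on the deposited scale) and did not pass in study 1 (0.13, adjusted p = 0.631). Psma7 ran from 9.68 to 10.43 in captured cells of study 1, against 9.17 to 9.52 in whole granuloma, with no overlap (0.81, adjusted p = 0.00197), a call lost as deposited (0.29). Psma7 was at 0.59 in study 2 (adjusted p = 0.00111) and at −0.74 there on the deposited scale.

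The 7 constitutive beta ring genes split into 3 higher, 3 lower and 1 not past in study 2. Study 1 had 3 higher, 1 lower and 3 not past. Psmb2, a beta subunit with no catalytic site, differed most in study 2. It ran from 5.70 to 8.88 in captured cells (median 8.06), against 9.31 to 10.14 in whole granuloma (median 9.52). The groups did not overlap, and the difference was −1.68 (SE 0.14, adjusted p = 4.39e-13). In study 1 Psmb2 ran from 8.53 to 9.60 in captured cells, against 8.10 to 9.14 in whole granuloma, and was higher by 0.48 (adjusted p = 0.0408) on this scale but at −0.15 as deposited. The difference between studies was −2.06 (adjusted p = 4.78e-08).

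The catalytic subunits Psmb5, Psmb6 and Psmb7 did not move together. Psmb7, the trypsin-like subunit, ran from 7.87 to 10.28 in captured cells of study 1 (median 8.80), against 9.73 to 11.50 in whole granuloma (median 10.27), and was lower (−1.48, SE 0.26, adjusted p = 8.8e-06). In study 2 Psmb7 ran from 9.04 to 10.60 in captured cells, against 9.56 to 11.58 in whole granuloma (−0.94, SE 0.19, adjusted p = 2.55e-05). It was lower in both studies on all 3 scales, but with the 3′ over 5′ covariate it did not pass in either and was at 0.51 in study 2 (adjusted p = 0.402) and −0.72 in study 1 (adjusted p = 0.072). Psmb6, the caspase-like subunit, was higher in 13 of 15 specimens of study 2 (0.48, SE 0.15, adjusted p = 0.0054) on this scale but at −0.78 as deposited, and did not pass in study 1 (0.30, adjusted p = 0.235). With the covariate the study 2 value of Psmb6 was −0.98 (adjusted p = 0.0316). Both covariate values of study 2 kept the array of specimen 2 of day 49 described below. Psmb5, the chymotrypsin-like subunit, did not pass in either study on this scale (−0.16, adjusted p = 0.0654, in study 2 and −0.01, adjusted p = 0.948, in study 1). In study 2 Psmb5 passed as higher with centred arrays (0.52, adjusted p = 0.000243) and as lower with the deposited values (−1.36, adjusted p = 3.03e-14). It passed as lower when specimen 2 of day 7 was left out (−0.21, adjusted p = 0.0221). The structural subunits Psmb3 (0.57, at −0.45 as deposited, in study 2 and 0.72 in study 1) and Psmb1 (0.50, at −0.90 as deposited, in study 2 and 0.81, at 0.26 and not past as deposited, in study 1) were higher in both.

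**Figure D3:**
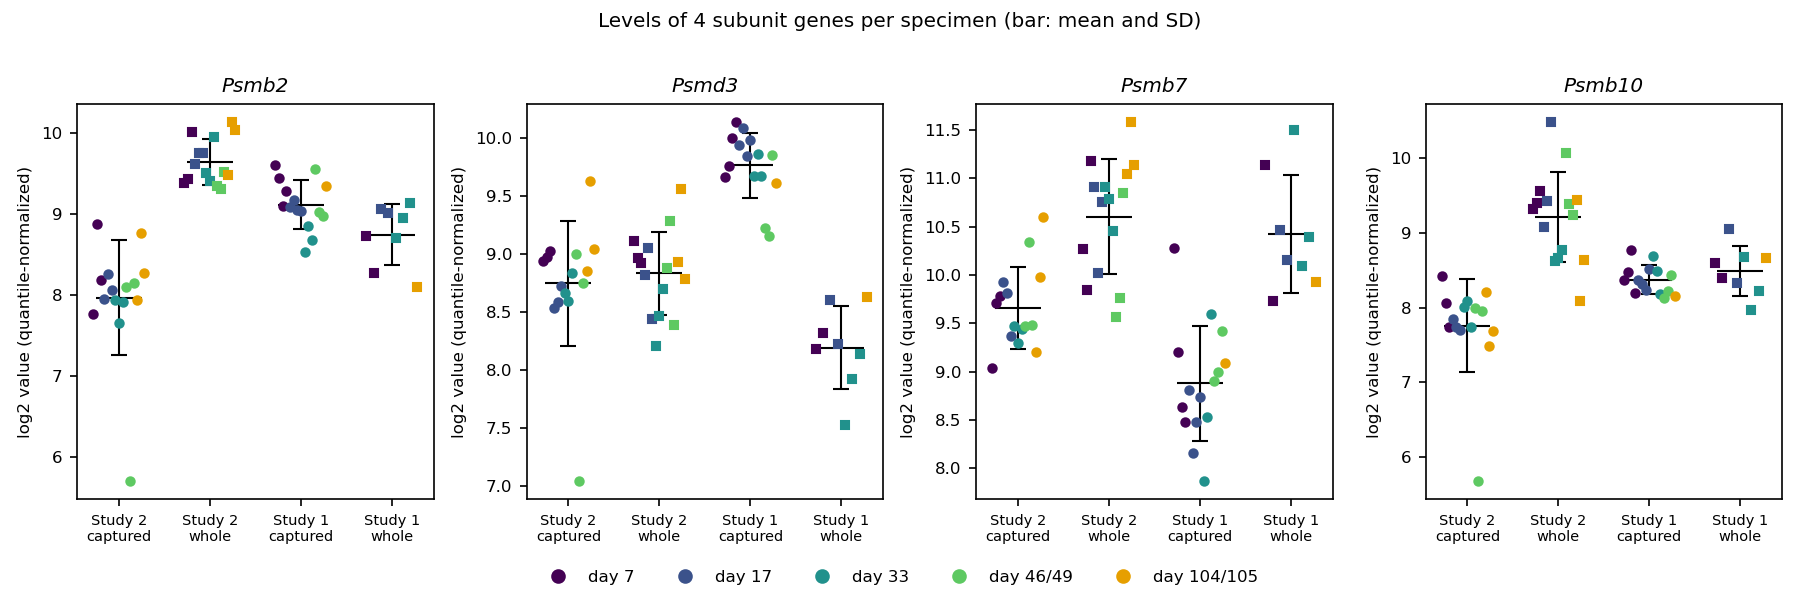
Log2 values of Psmb2, Psmd3, Psmb7 and Psmb10 per specimen, captured cells left of whole granuloma in each study (circles captured cells, squares whole granuloma, colours days, bars mean and SD). Psmb2 in study 2 and Psmd3 in study 1 show no overlap between tissues, and the lone captured value of study 2 at 5.70 (Psmb2), 7.04 (Psmd3) and 5.68 (Psmb10) is specimen 2 of day 49.

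Among the 6 ATPase genes, study 2 had 1 higher and 3 lower, while study 1 had 1 of each. Psmc5 ran from 6.85 to 9.28 in captured cells of study 2 (median 8.19), against 9.16 to 10.49 in whole granuloma (median 9.47). It was lower in 15 of 15 specimens (−1.39, SE 0.13, adjusted p = 1.65e-12) and was lower in study 1 as well (−0.61, SE 0.18, adjusted p = 0.00338). Psmc6 was higher by 0.47 in study 2 (adjusted p = 0.000846), at −0.98 as deposited. Psmc4 was higher by 0.63 in study 1 (adjusted p = 0.00999), a call lost as deposited (0.14).

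The 14 non-ATPase genes split evenly in study 2, with 5 higher and 5 lower, and study 1 had 3 higher with 1 lower. Psmd1, a large scaffold subunit of the cap, ran from 6.96 to 9.03 in captured cells of study 2 (median 8.29), against 8.78 to 10.66 in whole granuloma (median 9.79), and was lower in 15 of 15 specimens (−1.44, SE 0.12, adjusted p = 1.64e-13). In study 1 it did not pass (−0.16, adjusted p = 0.439), and the studies differed by −1.23. Psmd6 ran from 10.21 to 10.83 in captured cells of study 2, against 9.39 to 10.11 in whole granuloma. These groups did not overlap (0.88, SE 0.08, adjusted p = 5.49e-12), although the value as deposited was −0.56.

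Psmd3, another cap subunit, had the largest difference of any member in study 1 on this scale. It ran from 9.15 to 10.14 in captured cells (median 9.85), against 7.52 to 8.63 in whole granuloma (median 8.20), with no overlap. The difference was 1.52 (SE 0.18, adjusted p = 4.54e-09) and was above 0 on all 3 scales. In study 2 Psmd3 ran from 7.04 to 9.63 in captured cells, against 8.20 to 9.56 in whole granuloma, and did not pass (−0.09, adjusted p = 0.55). The difference between studies was −1.48 (adjusted p = 1.82e-06). Psmd8 was lower in both studies (−0.42 in study 2 and −0.65 in study 1), but was at 0.00 in study 2 with centred arrays.

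Among the activators, Psme4, which codes for PA200, ran from 9.27 to 10.43 in captured cells of study 2 (median 10.09), against 7.99 to 9.72 in whole granuloma (median 8.87). It was higher in 15 of 15 specimens (1.17, SE 0.11, adjusted p = 3.27e-12), at −0.35 as deposited, and did not pass in study 1 (0.27, adjusted p = 0.121). Another Psme4 probe set was lower in study 2 (−0.40, adjusted p = 0.0185) and a further one was higher (0.77). Psme3, the gamma subunit of a nuclear activator ring, ran from 8.55 to 9.84 in captured cells of study 2, against 7.59 to 9.27 in whole granuloma. It was higher in both studies (0.93, SE 0.11, in study 2 and 0.78, SE 0.15, in study 1), at −0.67 and, not past, 0.09 as deposited. Another Psme3 probe set was lower in both (−1.54 in study 2 and −1.94 in study 1), so the direction rests on the probe set taken. Psme1, a subunit of the activator that interferon gamma induces, was lower in study 2 (−0.42, adjusted p = 0.0332), at 0.02 with centred arrays. The call was lost without any 1 of 5 specimens: specimen 1 of day 7 (−0.40), 3 of day 17 (−0.31), 2 of day 33 (−0.41), 2 of day 49 (−0.26) and 3 of day 105 (−0.40). Psme1 did not pass in study 1 (0.06, adjusted p = 0.858).

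Of the 4 assembly chaperone genes, study 2 had 1 higher and 2 lower, and study 1 had 2 higher. Psmg4 ran from 7.89 to 9.41 in captured cells of study 1 (median 8.85), against 6.91 to 8.02 in whole granuloma (median 7.42), and was higher by 1.40 (SE 0.24, adjusted p = 5.71e-06). In study 2 Psmg4 was higher by 0.76 (SE 0.17, adjusted p = 0.000153), at −0.87 as deposited. Psmg3 was higher by 1.03 in study 1 (adjusted p = 0.000481), not past as deposited (0.31), and at −0.19 in study 2 (adjusted p = 0.321). Psmg1 was lower in study 2 (−0.49, adjusted p = 0.0127), a call lost with centred arrays (−0.16, adjusted p = 0.412), and at 0.50 in study 1 (adjusted p = 0.0795).

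Of the 44 members, 8 were higher in captured cells in both studies on the quantile-normalized scale: Psma5, Psma7, Psmb1, Psmb3, Psmd6, Psmd9, Psme3 and Psmg4. As deposited, all 8 were below 0 in study 2, and Psmd6 (−0.11) and Psmd9 (−0.36) in study 1 too. Another probe set of Psmd9 and another of Psme3 passed as lower in study 2, and so did another of Psme3 in study 1. Psmb7, Psmc5 and Psmd8 were lower in both, apart from Psmd8 at 0.00 in study 2 with centred arrays. Psmb2 and Psmb8 passed in opposite directions (both below 0 in the 2 studies as deposited), and 8 members passed in neither study. How many of all genes fell in each of these classes is not given here, so the counts are not read as a trait of the members. The tissue difference itself differed between studies for 19 of 44 members, against 44.9% of all genes. It was higher in study 2 for 7 members (22.8% of all genes) and lower for 12 (22% of all genes). As deposited the split was 0 higher and 33 lower, against 2.66% and 69.9% of all genes, with the median gene at −0.95. With centred arrays it was 10 and 6, against 30.2% and 18.6% of all genes. The 3 immunoproteasome genes were among the 12, with Psmb8 at −1.21 (adjusted p = 0.000313), Psmb10 at −1.06 (adjusted p = 0.00223) and Psmb9 at −0.88 (adjusted p = 0.0215). Without code 12 of day 17 of study 1 the Psmb9 value was −0.69 (adjusted p = 0.0858), and with centred arrays it was −0.53 (adjusted p = 0.179). Psme4 (0.91, adjusted p = 0.000249, at 0.01 as deposited), Psma2 (0.91, at 0.13 and not past as deposited), Psmd12 (0.82, at −0.03 as deposited) and Psmc6 (0.66, at −0.22 as deposited) were among the 7, and Psmc5 (−0.83, at −0.53 and not past with centred arrays, adjusted p = 0.0809) and Psmg3 (−1.03) were among the 12.

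The probe sets and arrays of a gene set limits on these values. For 20 members, 34 other probe sets were on the array, and 19 of the 34 had the sign of the one taken in study 2 and 20 of the 34 in study 1. In study 2, 8 of the 34, in 7 genes, passed in the opposite direction (Psmc1, Psmc6, Psmd7, Psmd9, Psmd11, Psme3 and Psme4). In study 1, 2 did (Psma6 and Psme3). Between arrays of 1 specimen of captured cells, the median SD of a member was 0.60 (study 2) and 0.34 (study 1). Between captured specimens of a day it was 0.52 (study 2) and 0.24 (study 1). In whole granuloma the median SD between specimens was 0.33 in study 2 and 0.27 in study 1.

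The 2 arrays of captured cells from specimen 2, day 49, study 2 stood apart from each other. The mean of the 34 core and cap genes other than the immunoproteasome was 7.12 on 1 array and 9.56 on the other, and the 3′ over 5′ value was 0.46 and 3.78. Psmb10 was at 3.45 and 7.91, Psmb6 at 6.08 and 10.46, and Psmb7 at 11.83 and 8.85 on the same arrays. Without the first array 18 members were higher and 17 lower in study 2, and 31 of the 32 genes called with all arrays were among them. Shares of all genes without that array are not given here.

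The mean of the 3 immunoproteasome genes minus the mean of the 34 other core and cap genes was −1.25 ± 0.31 in captured cells and −0.53 ± 0.57 in whole granuloma of study 2 (SD, n = 15 each). In study 1 it was −0.94 ± 0.20 in captured cells (n = 15) and −1.18 ± 0.27 in whole granuloma (n = 8). Whole granuloma of specimen 3 of day 17 of study 2 had the highest value of all specimens at 0.73, with Psmb8 at 10.99, Psmb9 at 11.12 and Psmb10 at 10.48. The lists of T and NK cell markers (7.44), B cell markers (8.39) and dendritic cell markers (6.84) were at their highest of the 15 whole granuloma specimens there, and those of plasma cells (8.00) and fibroblasts (9.96) at their lowest. Specimen 2 of day 105 of study 2 had the lowest value of its study in both tissues, −2.07 in captured cells and −1.95 in whole granuloma. Its B cell list (5.98 in captured cells and 6.30 in whole granuloma) and neutrophil list (5.94 and 5.48) were the lowest of the 15 in both tissues. The part of these cells in the immunoproteasome values was not tested.

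**Figure D4:**
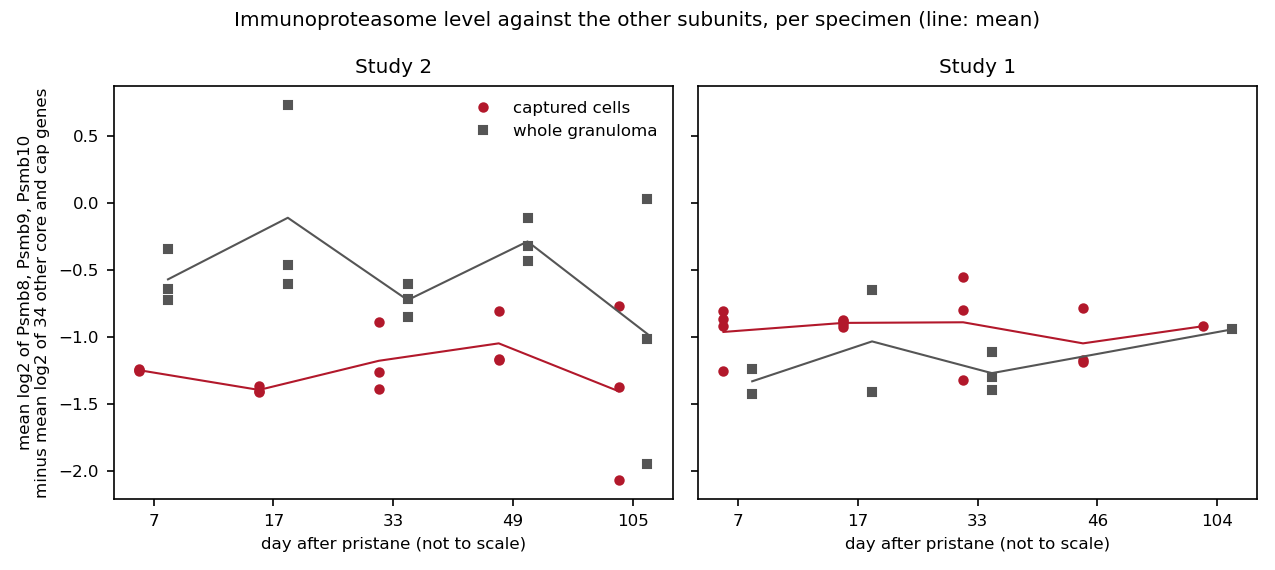
Mean log2 value of Psmb8, Psmb9 and Psmb10 minus that of the 34 other core and cap genes, per specimen and day (circles captured cells, squares whole granuloma, lines day means, days not to scale). In study 2 the captured cells lie lower on average at every day, with day means from −1.40 to −1.05 in captured cells and from −0.98 to −0.11 in whole granuloma, and the highest square is specimen 3 of day 17 at 0.73.

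By day, the captured minus whole difference of Psmb10 in study 2 averaged −1.35 ± 0.46 at day 7, −1.90 ± 0.80 at day 17, −0.74 ± 0.25 at day 33, −2.35 ± 1.24 at day 49 and −0.93 ± 0.31 at day 105 (SD, n = 3 each). It was below 0 in every specimen of each day. The Psmb8 difference averaged −0.90 ± 0.64, −1.38 ± 0.79, −0.10 ± 0.25, −0.45 ± 0.37 and −0.29 ± 0.37 over the same days. Whether the differences changed with the day was not tested.

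Genes around the proteasome were taken from 3 lists. Of 12 tested genes of class I presentation, 2 were higher and 8 lower in study 2, with a median of −0.84, and 1 was higher and 5 lower in study 1, with a median of −0.25. With centred arrays the study 2 median was −0.07, with 3 higher and 4 lower, and as deposited all 12 were lower, like 96.3% of all genes. The peptide loading factor Tapbp (−1.54 in study 2 and −1.21 in study 1) and the class I heavy chain H2-K1 (−1.49 and −0.98) were lower in both studies. The peptide transporter subunit Tap1 was higher in both (0.51 and 0.51, at −1.20 and −0.24 as deposited), and the trimming peptidase Erap1 was higher in study 2 (0.96, at −0.65 as deposited). Irf8, a factor of the interferon response, was lower in study 1 (−1.88).

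Of 11 tested regulators of the proteasome, 1 was higher and 4 lower in study 2, and study 1 had 4 higher with 1 lower. The median was −0.24 in study 2 (0.03 with centred arrays) and 0.08 in study 1 (−0.63 as deposited). The ubiquitin ligase gene Ube3c was higher in both studies (0.75 in study 2 and 0.60 in study 1, at −1.03 and −0.21 as deposited), and Nfe2l2, which codes for the oxidative stress factor NRF2, was lower in both (−1.05 and −1.46). The deubiquitinase gene Uchl5 was lower in study 2 (−0.52) and the small cap subunit gene Sem1 higher in study 1 (0.64). Of 7 genes of ubiquitin and its delivery to the proteasome, study 2 had 2 higher and 3 lower (median −0.10, at 0.17 with centred arrays), and study 1 had 2 lower (median −0.11). The shuttle genes Ubqln1 (−1.87 in study 2 and −0.87 in study 1) and Ubqln2 (1.08, at −0.55 as deposited, and −1.03) and the segregase gene Vcp (−1.14 in study 2) were among them, as was its cofactor Ufd1 (0.59 in study 2, at −1.17 as deposited).

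Marker lists checked what the tissues held. Of 9 plasma cell markers, 6 were higher and none lower in captured cells of study 2, and 4 higher and none lower in study 1, with Slamf7 at 1.46 and 1.48 and Jchain not past in either. As deposited 1 was higher and 7 lower in study 2, with the list median at −0.69, above the median gene at −1.68. Macrophage markers were lower in 6 and higher in 1 of 9 in study 2 and lower in 9 of 9 in study 1, and the list still averaged 9.18 in captured cells of study 2 (range 7.91 to 10.45), against 10.17 in whole granuloma (lowest 8.58). All 5 smooth muscle and all 4 adipocyte markers were lower in both studies on all 3 scales. The other lists on the quantile-normalized scale had higher and lower members in study 2 of 0 and 3 of 5 (B cells), 2 and 1 of 7 (T and NK cells), 2 and 2 of 6 (neutrophils), 2 and 1 of 3 (dendritic cells), 1 and 4 of 6 (fibroblasts), 0 and 4 of 5 (endothelium) and 1 and 0 of 5 (pancreatic acinar cells). In study 1 they had 0 and 1, 2 and 0, 0 and 2, 1 and 1, 0 and 3, 0 and 3, and 0 and 4 in the same order. The acinar list spread widely between specimens in captured cells of study 2 (mean 5.71, range 4.98 to 10.86) and whole granuloma of study 1 (mean 7.14, range 5.58 to 12.01). It stayed within 4.81 to 5.25 in whole granuloma of study 2 and 4.70 to 5.02 in captured cells of study 1. The part of the listed cell types in the proteasome differences was not tested.

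Comparisons over days used the deposited values within a tissue. In captured cells of study 2, 7 of 44 members varied over days (15.9%, against 15.2% of all genes): Psma3, Psma4, Psmb3, Psmc5, Psmc6, Psmd11 and Psmd14. Psmb3 was at 12.19, 12.87 and 12.71 at day 7, at 12.86, 13.05 and 12.93 at day 17, at 12.08, 11.93 and 12.04 at day 33, at 11.91, 9.99 and 12.15 at day 49 and at 12.17, 12.91 and 12.96 at day 105. Its day means spanned 1.60 (adjusted p = 0.00512), with the lowest value in specimen 2 of day 49. Psma3 (range of day means 1.66), Psmd14 (1.63) and Psmc6 (1.20) were lowest at day 49 too, where their SD was 2.11, 2.17 and 1.25, and their calls were lost on leaving out any 1 of 10, 11 and 11 specimens. Without 1 array of that specimen 3 members passed, Psmb3, Psmb4 and Psmc5. The count was 26 without specimen 1 of day 49, 20 without specimen 3 of day 49, and 1 without specimen 2 or 3 of day 105 or specimen 2 of day 33. Shares of all genes in these fits are not given here, so the counts are not read as a trait of the members.

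Psmc5 was at 6.64, 8.04 and 8.12 in captured cells of study 2 at day 7 and at 8.15, 9.15 and 9.05 at day 105. It was the only member past the threshold between these days (1.18 for day 105 minus day 7, SE 0.33, adjusted p = 0.0201), against 6.82% of all genes, of which 4.45% were higher and 2.37% lower. The call was lost without specimen 2 or 3 of day 105 or specimen 1 of day 7, and 2 members, Psmc5 and Psme3, passed without 1 array of specimen 2 of day 49. The immunoproteasome genes did not pass in captured cells of study 2 over days, with day means of Psmb8 spanning 0.48, Psmb9 0.93 and Psmb10 0.64 (adjusted p = 0.651, 0.418 and 0.471 in limma).

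In whole granuloma of study 2, 3 members varied over days (6.82%, against 24.4% of all genes). Psmb10 was at 10.71, 10.79 and 10.95 at day 7, at 10.46, 10.77 and 11.76 at day 17, at 10.07, 10.10 and 9.90 at day 33, at 11.36, 10.70 and 10.63 at day 49 and at 10.82, 9.59 and 9.98 at day 105 (adjusted p = 0.0481). Day 33 was the lowest on average. The call was lost on leaving out any 1 of 11 of the 15 specimens, and on quantile-normalized values (adjusted p = 0.07). Psmd4, the ubiquitin receptor of the cap, was at 10.39, 10.29 and 10.19 at day 33, against 11.36, 11.57 and 11.35 at day 7, and its day means spanned 1.13 (adjusted p = 0.00797). Psmc4 day means spanned 1.56 (adjusted p = 0.0144). The ratio of Psmb10 to Psmb7 varied as well (span 1.78, adjusted p = 0.0325), a call lost on leaving out any 1 of 6 specimens. The count of members was 13 without specimen 2 of day 49, 8 without specimen 3 of day 49, 5 without specimen 1 of day 17 and 1 without specimen 3 of day 33. For these fits too the shares of all genes are not given here.

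No member passed in limma for day 105 minus day 7 in whole granuloma of study 2 (4 at an unadjusted p under 0.05: Psmb10, Psmc4, Psmd1 and Psmd4), against 18.9% of all genes, 6.05% higher and 12.9% lower. In study 1 no member passed for day 104 minus day 7 in captured cells (1 at an unadjusted p under 0.05, Psmd13), against 1.02% of all genes (0.535% higher and 0.489% lower), or in whole granuloma (0 at an unadjusted p under 0.05), against 0% of all genes. None varied over days in captured cells (0 unadjusted, against 0.594% of all genes adjusted) or whole granuloma of study 1 (0 unadjusted, against 0.0349% of all genes adjusted). Day 104 of study 1 had 1 specimen in each tissue. The members' median for the last day minus day 7 was 0.11 in captured cells and −0.13 in whole granuloma of study 2, and −0.23 in captured cells and 0.10 in whole granuloma of study 1. Over all genes it was 0.09, −0.03, 0.01 and 0.00 in the same order.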

How the data were processed

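The members and gene lists were chosen with earlier results of these data known. The deposited table holds log2 values of 22690 probe sets on 82 arrays. The authors made them with RMA in Partek, as the processing notes of the submitters name them, with versions not given in the sources used here. Of the probe sets, 20393 had 1 gene symbol in the array's annotation, 691 had several and 1606 had none, and a gene's probe set with the highest mean was taken. Arrays of 1 specimen code and tissue were averaged, which gave 53 averages from 33 codes in 19 groups. All groups entered a single limma model (limma 3.58.1, R 4.3.3, 34 degrees of freedom for the spread). Specimen codes were a random block (correlation 0.112 on quantile-normalized and 0.121 on deposited values). Genes above the array median in at least 3 averages were tested (8593), with 3 log2 ratios as further rows, and p-values were adjusted by Benjamini-Hochberg at 0.05.

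Tissue comparisons averaged over days used quantile-normalized values, and day comparisons the deposited ones. Array medians of the deposited values lay between 5.31 and 5.64 in captured cells and 7.11 and 7.33 in whole granuloma of study 2, and between 4.97 and 5.11 in captured cells and 5.73 and 5.82 in whole granuloma of study 1. Study 2 minus study 1 used the days the studies share, with 105 against 104. Captured cells and whole granuloma that share a specimen code were taken as pairs. The deviations of 12 of 19 such pairs correlated above 0.1 (range −0.20 to 0.70, median 0.17). Genes named were the catalytic subunits, the immunoproteasome genes, Psme1 and Psme3, in each comparison and role the largest difference each way (over days, the largest range) that passed, and of each pathway list the 2 largest each way. Other genes were named after their values were seen. The fit was tested on simulated data. Alternatives tried were other scales, no filter, the mean over probe sets, other blocks, the 3′ over 5′ value and the year in the array title as covariates, other readings of 2 specimen codes, and leaving out specimens. The number of arrays limits the precision. Scanner intensities were not used here.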

Additional observations from a re-analysis of the deposited data

Results flagged for a closer look

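Captured cells of study 1 held 5 values far from the others of their day group. They were among 62 combinations of a gene or ratio with a day group, where chance gives about 1 in 20. Only days 7 and 17 of these cells had the 4 specimens the rule needs. The combinations share specimens and are not independent. At day 7, code 003 had Psmb1 at 9.04 (nearest 10.13) and Psmd1 at 8.94 (nearest 9.69), and code 5 had Psme1 at 9.07 (nearest 9.49). At day 17, code 12 had Psmd12 at 9.06 (nearest 9.45) and code 4 had Psmd14 at 11.87 (nearest 11.68).

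The captured minus whole difference differed between the cohorts (study 2 minus study 1, limma) for 14 of the genes named and for all 3 ratios. Some genes were named because they had the largest differences past the threshold in this same comparison, so the 14 are a list and not a rate. Over all members 19 of 44 passed (43.2%), against 44.9% of all genes. It was higher in study 2 for Psma2 (0.91), Psme4 (0.91), Psmd12 (0.82), Psmc6 (0.66) and Psmd6 (0.50), of which Psmc6, Psmd6 and Psmd12 were below 0 as deposited (−0.22, −0.41 and −0.03). It was lower in study 2 for Psmb2 (−2.06), Psmd3 (−1.48), Psmd1 (−1.23), Psmb8 (−1.21), Psmb10 (−1.06), Psmg3 (−1.03), Psmb9 (−0.88), Psmc5 (−0.83) and Psmg1 (−0.79), of which Psmb9, Psmc5 and Psmg1 did not pass with centred arrays (−0.53 each). As deposited Psma2 (0.13) and Psme4 (0.01) did not pass. The ratios were at −1.07 (Psmb8 to Psmb5), −1.31 (Psmb9 to Psmb6) and −1.43 (Psmb10 to Psmb7).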

How the results depend on the processing

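On the deposited scale the members split 0 higher to 43 lower (study 2) and 3 to 21 (study 1), and 33 differed between studies, all lower. Of all genes on that scale, 69.9% were lower between studies, 96.3% in study 2 and 60.2% in study 1. The ratios there were −0.66 (Psmb10 to Psmb7, study 2, adjusted p = 0.00473), 0.35 (Psmb8 to Psmb5, study 1) and −0.12 (Psmb9 to Psmb6, study 1). Genes changed sign as deposited in study 2 (Psma2 −0.33, Psmb3 −0.45, Psmb6 −0.78, Psmc6 −0.98, Psmd6 −0.56, Psme3 −0.67, Psme4 −0.35, Psmg4 −0.87), in study 1 (Psmb6 −0.0866, Psmb8 −0.022, Psmb9 −0.21, Psme1 −0.51) and between studies (Psmb6 −0.45, Psmb7 −0.41, Psmc6 −0.22, Psmd12 −0.0268, Psme3 −0.68). With centred arrays study 2 had 25 higher and 9 lower, against 45.7% and 27.1% of all genes. The same ratios were −0.66 (adjusted p = 0.00719), 0.35 (adjusted p = 0.0735) and −0.12, by construction the values as deposited. Psmb5 was at 0.52 and past the threshold in study 2, 0.36 in study 1 and 0.27 between studies, and Psme1 at 0.0153 in study 2. With the 3′ over 5′ covariate 2 members were higher in study 2, while study 1 had 3 higher, 8 lower. The number lower in study 2 with it is not given here. The shares of all genes with that covariate are not given here. Over days 3 passed in captured cells and 6 in whole granuloma of study 2, and 0 for day 105 minus day 7 in captured cells. The ratios were −0.40, −0.40 and −3.115 in study 2 and −0.0592 (Psmb10 to Psmb7) in study 1. Signs changed for Psma2 (−0.0412), Psmb6 (−0.98), Psmb7 (0.51), Psmc6 (−0.21) and Psmg4 (−0.60) in study 2, Psmb6 (−0.47) and Psme1 (−0.27) in study 1 and Psmb6 between studies (−0.38). These covariate fits kept the array of specimen 2 of day 49. The value of Psmb6 in study 2 passed in its turned direction, and that of Psmb7 there did not pass. The cause was not tested.

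With the mean over probe sets 5 were lower in study 1, 9 varied over days and 2 passed for day 105 minus day 7 in whole granuloma of study 2, and Psme3 was at −0.14 in study 2 and −0.42 in study 1. With no filter 2 varied over days in captured cells of study 2, and on quantile-normalized values 4 did there, 6 in whole granuloma, and 2 passed for day 105 minus day 7 in whole granuloma. With code 5 read as 2 specimens 5 varied over days in whole granuloma of study 2. With the specimen as a fixed replicate block 8 were higher in study 1, 10 differed between studies, Psmb8 to Psmb5 was 0.53 in study 1 and Psmb5 was at 0.10 there. Without any block the counts stayed the same or near those given and no ratio changed its call. There 1 of 57 results of named genes lost its call. Without day 104 Psmb5 was at 0.0061 in study 1. Without 1 array of specimen 2 of day 49, or without its captured cells (alternatives chosen after seeing the data, as was leaving out whole granuloma of specimen 3 of day 17), 3 and 2 varied over days in captured cells, and 2 passed for day 105 minus day 7 either way. Leaving out 1 specimen at a time gave 1 to 26 members over days in captured cells and 1 to 13 in whole granuloma of study 2, 0 to 2 for day 105 minus day 7 in each, Psmb10 to Psmb7 from −0.73 to −0.29 in study 2 (passing without specimen 3 of day 49) and from 1.39 to 2.27 over days in whole granuloma, and in study 1 Psmb5 from −0.065 to 0.0387 and Psme1 from −0.0516 to 0.145. The tissue counts then ran from 15 to 17 higher and 16 to 19 lower in study 2 and from 11 to 14 higher and 3 to 4 lower in study 1. With the year in the title as a covariate the array without one was dropped. Joining code 003 with code 3 left the counts the same or near those given, and 1 of 57 results of named genes lost its call. Shares of all genes under the settings of this paragraph are not given here, so its counts are not read as a trait of the members.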
